A study of Mus musculus with 20 samples.

Results

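Transcripts of 10 genes that mark contractile, mural and mesenchymal cells were followed in the kidneys of aged mice. The genes were chosen by name, as the rows called Acta2, Tagln, Myh11, Cnn1, Des, Vim, Pdgfra, Pdgfrb, Rgs5 and S100a4. All 10 were present among the 26608 genes named in the table of 12 kidneys and among the 30809 genes of the table of 8 kidneys. All of them passed the filter on low counts in the larger table, and 9 of 10 passed it in the smaller one, S100a4 being the exception.

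The mice had received bone marrow transplants that gave them a Control or a LOY blood system, LOY being the loss of the Y chromosome. The larger table compared 6 Control kidneys (animals 3, 11, 12, 13, 16 and 17) with 6 LOY kidneys (animals 5, 8, 9, 10, 14 and 18), to see how a blood system without the Y chromosome relates to the kidney. The smaller table held 8 LOY kidneys, 4 from animals given a control compound (6, 8, 9 and 10) and 4 from animals given ABT263 (15, 16, 17 and 18), a BCL-2 family inhibitor used as a senolytic, a drug that kills senescent cells. The labels give each kidney a numbered animal, but no strain, age in months, dose or method of Y loss, and they do not say whether LOY animals 8, 9 and 10 are the same mice in both tables. The series text calls the conditions hematopoietic, so LOY here describes the transplanted blood system and not the kidney cells.

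Smooth muscle cells of the renal arteries and arterioles, pericytes along the capillaries and mesangial cells of the glomerulus hold vessels in tension with an actin and myosin apparatus. Interstitial fibroblasts make the collagenous matrix between the tubules, and in fibrosis part of the stroma becomes myofibroblasts, which carry alpha smooth muscle actin. Transcription of many contractile genes is driven by serum response factor (SRF) with its partners of the myocardin family, which bind a short element called the CArG box. In whole kidney RNA, fewer cells of a type and less RNA per cell cannot be told apart.

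CArG boxes were looked for in RefSeq windows (GRCm38.p6) that run from 250 bases before to 50 bases after a transcript start. The box was spelled as CC, 6 bases of A or T and GG, which reads as the same motif on both strands, and a near box had 1 C or G among the 6 inner bases. Windows were found for 7 of the 10 members: Acta2, Cnn1, Des, Pdgfra, Rgs5, S100a4 and Vim. Tagln, Myh11 and Pdgfrb had none. An exact box was found in 0 of the 7 and a near box only in Acta2, which had a pair of them. Among 26 other contractile genes with windows, 5 held an exact box and 7 an exact or near one. Of all 32851 windows, 1.63% held an exact box and 9.98% an exact or near one. These shares count windows and the numbers before them count genes, which can have several windows, so they are not on the same footing. A match is a description of letters and not a shown binding site. The sites of Acta2 are printed because Acta2 led the pattern described further down, and those of Srf, Myl9 and Vcl because they show the exact form in genes of the same apparatus. Capitals mark the box within 30 bases that read 5′ to 3′ on the strand of the gene.

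Acta2, near box at -84 (chr19:34255438-34255467, minus strand): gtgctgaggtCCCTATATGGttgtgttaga
Acta2, near box at -34 (chr19:34255388-34255417, minus strand): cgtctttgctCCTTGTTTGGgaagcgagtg
Srf, exact box at -82 (chr17:46556225-46556254, minus strand): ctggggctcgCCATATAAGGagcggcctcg
Myl9, exact box at -161 (chr2:156775293-156775322, plus strand): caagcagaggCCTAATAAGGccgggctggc
Vcl, exact box at -227 (chr14:20929161-20929190, plus strand): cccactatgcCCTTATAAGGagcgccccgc

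The positions count from the RefSeq start of each window. The GENCODE M21 annotation sets the start of Acta2 further upstream, so that both of its near boxes lie within the span of the gene (chromosome 19, 34241090 to 34255590) in that annotation.

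Depth was 13332563 to 19386408 gene counts per kidney in the larger table and 14587809 to 20791633 in the smaller. Levels are given below as CPM, gene counts relative to the TMM-scaled total of the library. The libraries carried the markers of kidney, with summed CPM of 10 proximal tubule genes between 24583 and 64388 in the larger table. Of 8 markers of skeletal muscle, another source of contractile transcripts, Myh2 had 0 counts summed over the 12 kidneys, Ckm 2, Myh4 5, Tnnt3 26, Myh1 31 and the actin gene Acta1 37. Mylpf and Actn3 were found in every kidney, with 280 and 291 counts in all. The 8 together came to 2.61 to 4.57 CPM in Control and 1.93 to 8.95 CPM in LOY kidneys.

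Of the 10 members, Vim rose in LOY kidneys and the other 9 did not pass the test. Over all 14978 tested genes, 1.11% were called higher and 0.0601% lower at an adjusted p of 0.05 (edgeR quasi-likelihood test), so 1 of 10 members stands against a background of 1.11%. By unadjusted p, 4 of 10 members were under 0.05, beside 22.8% of all genes. DESeq2 and voom each called 1 member, beside 5.90% and 7.19% of the genes they tested. The median log2 fold change of the members was 0.52, with 8 positive and 2 negative, beside a median of 0.02 and 52.3% positive among all tested genes. For 0 of 10 members the LOY values lay wholly above the Control values, against 1.56% of all genes, and for 0 of 10 wholly below, against 0.461%.

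Acta2 encodes alpha smooth muscle actin, the thin filament of smooth muscle and myofibroblasts. Its Control kidneys ranged from 38.7 to 92.8 CPM with a median of 46.1 CPM. The LOY kidneys ranged from 41.7 to 110 CPM with a median of 87.5 CPM. The groups overlapped, since Control animal 3, at 92.8 CPM, was above 5 of the 6 LOY kidneys, while LOY animals 14 and 18 lay at 53.6 and 41.7 CPM. On the log2 scale LOY differed from Control by 0.59 ± 0.25 (SE, adjusted p = 0.188).

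Tagln (chromosome 9, 45929619 to 45936058) encodes transgelin, an actin-binding protein of smooth muscle. It followed Acta2 from kidney to kidney. Control values ran from 36.7 to 107 CPM (median 48.2 CPM) and LOY values from 49.2 to 107 CPM (median 86.8 CPM). The highest of the 12 for Tagln was Control animal 3, at 107 CPM, which was the next after LOY animal 8 for Acta2. The other 5 Control kidneys reached no more than 51.9 CPM. Its log2 fold change was 0.54 ± 0.26 (adjusted p = 0.230).

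Myh11, the smooth muscle myosin heavy chain (chromosome 16, 14194535 to 14291372), differed less. It lay between 19.7 and 31.5 CPM in Control (median 27.8 CPM) and between 23.8 and 42.8 CPM in LOY kidneys (median 29.0 CPM). Only LOY animals 8 and 10, at 37.3 and 42.8 CPM, were above every Control kidney. This gave a log2 fold change of 0.22 ± 0.16 (adjusted p = 0.409).

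Cnn1 encodes calponin 1, a thin filament protein that restrains actomyosin. Its Control kidneys were close together, from 1.86 to 2.79 CPM (median 2.34 CPM). Its LOY kidneys spread to both sides of that range, from 1.26 CPM in animal 18 to 8.80 CPM in animal 8 (median 2.91 CPM). Of the 6 LOY kidneys 3 were above and 2 below every Control kidney. The log2 fold change was 0.56 ± 0.39 (adjusted p = 0.377), and it was 0.05 without LOY animal 8.

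Des encodes desmin (chromosome 1, 75360329 to 75368579), the intermediate filament of muscle that pericytes and mesangial cells also carry. Control kidneys held 15.0 to 29.7 CPM (median 19.7 CPM) and LOY kidneys 18.4 to 46.3 CPM (median 28.1 CPM). The highest Control kidney was animal 3 and the highest LOY kidney animal 8, and the groups overlapped. LOY and Control differed by 0.50 ± 0.21 on the log2 scale (adjusted p = 0.192).

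Pdgfrb, the receptor through which platelet-derived growth factor recruits pericytes and mesangial cells, had 35.0 to 79.9 CPM in Control (median 45.3 CPM). In LOY kidneys it had 48.6 to 75.4 CPM (median 62.4 CPM). The highest kidney of all was Control animal 3, while 6 of 6 LOY kidneys were above the Control median. The log2 fold change was 0.34 ± 0.17 (adjusted p = 0.247).

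Rgs5, a regulator of G protein signalling found in pericytes and arteriolar smooth muscle, ran in the other direction. Control kidneys had 7.32 to 13.6 CPM (median 9.90 CPM) and LOY kidneys 2.74 to 10.3 CPM (median 7.53 CPM). The lowest was LOY animal 8 and the highest Control animal 12. Its log2 fold change was -0.45 ± 0.27 (adjusted p = 0.308). These values rest on 37 to 213 counts per kidney, and the level of Rgs5 differed between the tables, as described further down.

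Vim encodes vimentin (chromosome 2, 13573927 to 13582826), the intermediate filament of fibroblasts, endothelium, podocytes and leukocytes, which injured tubule cells also take up. In the Control kidneys it was measured at 100.02, 60.9, 56.4, 48.4, 77.6 and 61.5 CPM in animals 3, 11, 12, 13, 16 and 17. In the LOY kidneys it was 101, 220, 125, 189, 104 and 88.7 CPM in animals 5, 8, 9, 10, 14 and 18. Of the 6 LOY kidneys 5 lay above every Control kidney, and the exception, animal 18, was above all but Control animal 3. The mean went from 67.5 ± 18.6 to 138 ± 54.0 CPM (SD, n = 6 each), a log2 fold change of 1.03 ± 0.24 or 2.05-fold (adjusted p = 0.0483).

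This call stood close to the threshold and was lost in 16 of 22 other settings, although the sign stayed positive in all 22. The adjusted p was 0.0522 with median-ratio factors, 0.0501 with upper-quartile factors, 0.0526 with totals alone, 0.0557 with no filter and 0.0536 with a mean of at least 1 CPM. When single kidneys were left out the log2 fold change lay between 0.85 and 1.18 and the adjusted p between 0.0188 and 0.147. The call held without Control animal 3, LOY animal 5 or LOY animal 18, and was lost without any other single kidney. Without LOY animals 8 and 10, the highest for Vim, it was 0.62 (adjusted p = 0.138).

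Pdgfra, the receptor that marks interstitial fibroblasts (chromosome 5, 75152292 to 75198215), had nearly equal means, 43.3 ± 6.57 CPM in Control and 43.2 ± 11.7 CPM in LOY kidneys. The LOY kidneys were the more scattered, from 27.6 CPM in animal 8 to 61.8 CPM in animal 10, around a median of 40.9 CPM. The Control kidneys ran from 34.6 to 55.0 CPM with a median of 42.7 CPM. Its log2 fold change was -0.00257 ± 0.17 (adjusted p = 0.994).

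S100a4, also called fibroblast-specific protein but carried by many leukocytes as well, lies on chromosome 3 (90603771 to 90606045). It ranged from 2.17 to 6.67 CPM in Control (median 4.25 CPM) and from 5.44 to 15.8 CPM in LOY kidneys (median 6.34 CPM). The LOY kidneys were all above the Control median, and 3 of 6 were above every Control kidney. The log2 fold change was 0.87 ± 0.31 (adjusted p = 0.153). Most of the LOY values sat close together, with animal 8 at 15.8 CPM well apart.

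**Figure D1:**
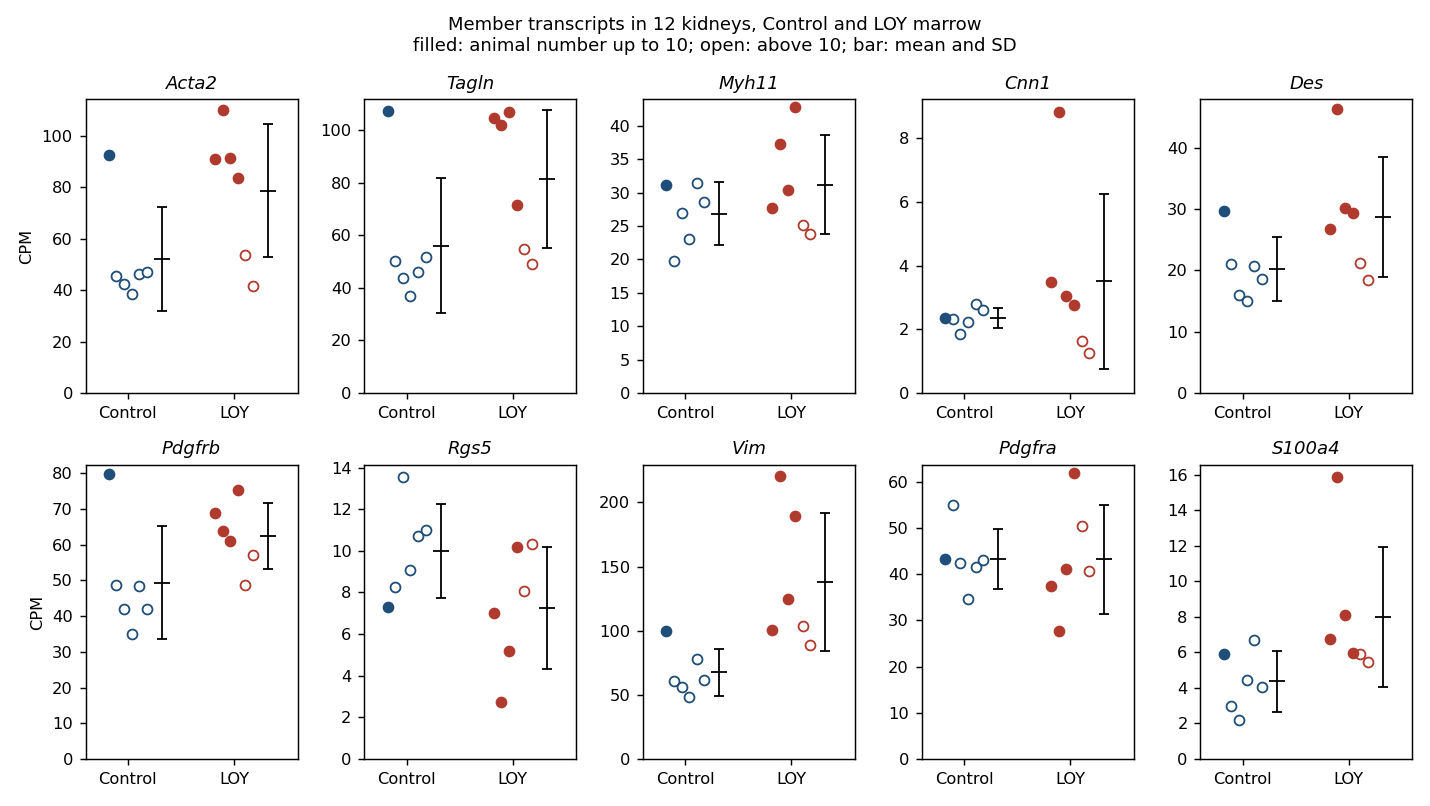
CPM of each member (vertical axes, from 0) in the 6 Control and 6 LOY kidneys, 1 point per kidney, with mean and SD beside each group. Filled points are animals numbered up to 10 and open points those above 10; for Acta2, Tagln, Des and Pdgfrb all filled points lie above all open points.

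The kidneys sorted by animal number more clearly than by marrow for 4 members. Acta2 lay between 83.7 and 110 CPM in the 5 kidneys of animals numbered up to 10 (Control 3 and LOY 5, 8, 9 and 10) and between 38.7 and 53.6 CPM in the 7 kidneys above 10. Tagln lay between 71.6 and 107 CPM against 36.7 and 54.9 CPM. The ranges of Des were 26.7 to 46.3 CPM against 15.0 to 21.2 CPM, and those of Pdgfrb were 61.1 to 79.9 CPM against 35.0 to 57.0 CPM. These 4 of 10 members stand beside 5.38% of all tested genes whose ranges separated in the same way. The labels do not say what the numbers stand for, and the split at 10 was chosen with earlier results of these data known, so the tests below describe the split and are no independent evidence of it.

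With animal number and marrow in 1 fit, the effect of a number above 10 was -1.02 ± 0.11 for Acta2 (edgeR adjusted p = 0.00178) and -1.02 ± 0.14 for Tagln (adjusted p = 0.00486) on the log2 scale. It was -0.73 ± 0.17 for Des (adjusted p = 0.0380) and -0.56 ± 0.13 for Pdgfrb (adjusted p = 0.0380). The number effect was thus called lower for 4 of 10 members, against 1.76% of all genes. Vim missed the threshold at -0.72 ± 0.20 (adjusted p = 0.0537). Cnn1 had -1.05 ± 0.45 (adjusted p = 0.139), S100a4 -0.63 ± 0.33 (adjusted p = 0.221) and Myh11 -0.41 ± 0.16 (adjusted p = 0.118). Rgs5 and Pdgfra had positive number effects, of 0.54 and 0.07, that did not pass.

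In that same fit the LOY effect on Acta2 was 0.08 ± 0.11 (adjusted p = 0.926), where it was 0.59 without the number term. Tagln had 0.06, Des 0.13, Pdgfrb 0.09, Myh11 -0.00186 and Cnn1 -0.14. The median LOY effect over the members was 0.07. Vim and S100a4 kept the larger values, 0.66 ± 0.20 (adjusted p = 0.243) and 0.53 ± 0.33 (adjusted p = 0.757). No member and no gene was called in this fit: edgeR called 0 of 14978 genes higher (0%), with 1 of 10 members and 1194 genes of either direction (7.97%) at an unadjusted p under 0.05.

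Among the 7 animals numbered above 10 alone, 5 Control and 2 LOY, Vim was called with a log2 fold change of 0.66 ± 0.14 (adjusted p = 0.0265). In these 7 kidneys Vim averaged 61.0 ± 10.7 CPM in Control, and the LOY kidneys had 104 and 88.7 CPM, both above all 5 Control kidneys. Acta2 had 0.11 ± 0.11 (adjusted p = 0.716) and Tagln 0.18 ± 0.12 (adjusted p = 0.511) there. Only 1 Control kidney had a number up to 10, so within the lower numbers no comparison with replicates of both groups could be made.

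The calls depended on single kidneys in both directions. Without Control animal 3, 4 members passed: Vim, Acta2 (0.83, adjusted p = 0.0430), Tagln (0.83, adjusted p = 0.0419) and Pdgfrb (0.53, adjusted p = 0.0371). In that fit 607 genes were called in all, against 176 with it. Without LOY animal 10 or any 1 of the other 5 Control kidneys, 0 to 9 genes and 0 members were called (edgeR).

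**Figure D2:**
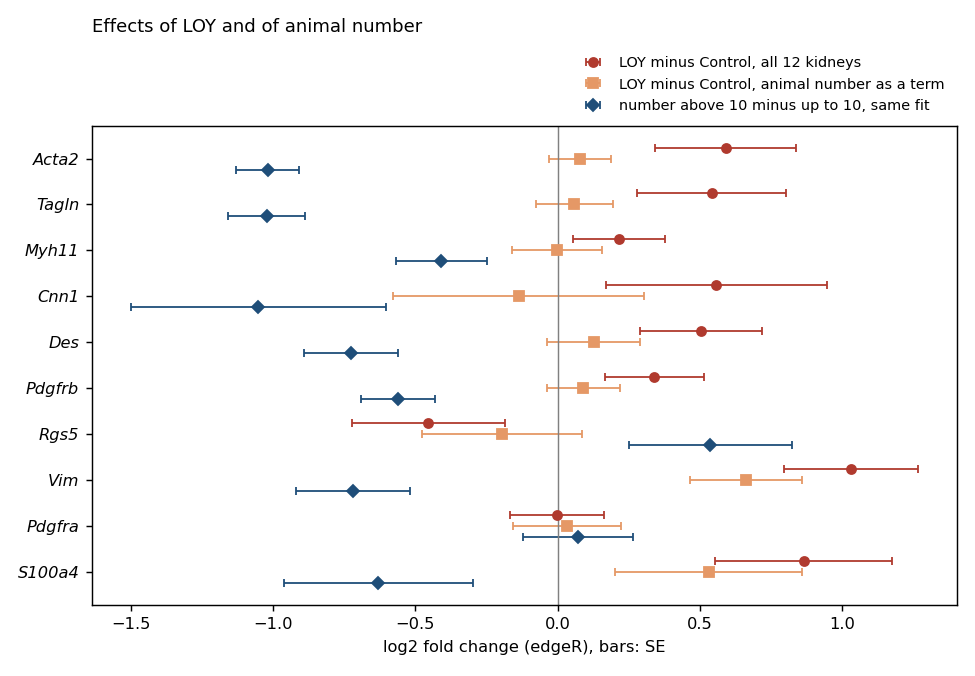
Log2 fold changes (horizontal axis, bars SE) of each member for LOY against Control in all 12 kidneys (circles), for LOY with animal number as a term (squares) and for number above 10 against up to 10 in the same fit (diamonds). The squares of the contractile genes lie near 0, that of Vim at 0.66, and the diamonds of Acta2 and Tagln at -1.02.

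Markers of other cells and tissues also followed animal number. The 3 tested adipocyte genes were all called lower above 10, with a median number effect of -4.24 and summed CPM of 62.3 to 388 up to 10 and 34.9 to 72.4 above 10. Urothelium markers, from the lining of the renal pelvis, had a median of -0.99 and summed CPM of 54.3 to 259 against 21.9 to 114, with 0 of 9 called in edgeR (5 at an unadjusted p under 0.05). Podocyte markers had a median of -0.35, with 3 of 8 called lower and summed CPM of 498 to 874 against 458 to 669. Distal nephron markers had a median of 0.30, with 2 of 8 called higher. Their summed CPM did not overlap, at 3881 to 4415 up to 10 and 4706 to 8776 above 10. Of all 14978 tested genes, 264 (1.76%) were called lower above 10 and 359 higher. The part of these cells in the member values was not tested.

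With LOY, markers of macrophages, of T and natural killer cells and of injured tubules were higher. Of 11 macrophage genes 6 rose (median 1.05), and their summed CPM of 241 to 401 in Control and 454 to 615 in LOY kidneys did not overlap. Of 10 T and natural killer cell genes 5 rose (median 1.33, summed CPM 15.3 to 25.7 against 33.8 to 61.8). Of 9 injured tubule genes 6 rose (median 1.33, summed CPM 1518 to 2949 against 3112 to 7604). Over all tested genes 1.11% were called higher. With animal number as a term, 0 of 14978 genes were called higher (edgeR; 7.97% of either direction at an unadjusted p under 0.05). The medians were then 0.91 for macrophage, 1.28 for T and natural killer cell and 1.23 for injured tubule genes. Endothelial markers had a median of 0.04 and podocyte markers of 0.21, with 0 called in either (edgeR; 1 and 0 at an unadjusted p under 0.05, and 0 by DESeq2 and by voom). Proximal tubule markers went the other way, with 8 of 10 negative and a median of -0.45. Distal nephron markers had 7 of 8 negative and a median of -0.34. Of these 2 lists edgeR called 0 (5 and 3 at an unadjusted p under 0.05, DESeq2 3 and 0, voom 3 and 1). What these cells contribute to the Vim and S100a4 values was not tested.

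Ratios within a kidney compare 2 genes free of library scaling, and 5 were tested by exact two-sided permutation over 924 splits, where the smallest p possible was 0.00216. The ratio of Vim to Des, both intermediate filaments, averaged 1.73 ± 0.124 (log2, SD, n = 6) in Control and 2.24 ± 0.263 in LOY kidneys. The groups did not overlap, with 6 of 6 LOY kidneys above the Control range, the nearest being 1.91 in LOY animal 5 and 1.90 in Control animal 16. The difference was 0.51 (exact permutation p = 0.00216, adjusted p = 0.0108 over 5 ratios). Among the animals numbered above 10, with 5 Control and 2 LOY kidneys, it was 0.55 with an exact permutation p of 0.0476 (adjusted p = 0.238). Both are the smallest that 21 splits could give for this ratio beside the other 4, so this subset could not have passed.

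Rgs5 to Pdgfrb, a pair of pericyte genes, had a log2 ratio of -2.27 ± 0.646 in Control and -3.19 ± 0.749 in LOY kidneys. The difference was -0.93 (exact permutation p = 0.0455, adjusted p = 0.114). This ratio also separated by animal number, from -4.48 to -2.87 in animals numbered up to 10 and from -2.57 to -1.62 above 10. Acta2 to Myh11 differed by 0.38 (exact permutation p = 0.123, adjusted p = 0.154), from 0.91 ± 0.394 to 1.29 ± 0.381, and Control animal 3 was among the high values at 1.57. Pdgfra to Pdgfrb differed by -0.41 (exact permutation p = 0.123, adjusted p = 0.154). S100a4 to Ptprc, the pan-leukocyte gene CD45, differed by 0.04 (exact permutation p = 0.918), with means of -2.11 ± 0.481 in Control and -2.07 ± 0.792 in LOY kidneys.

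**Figure D3:**
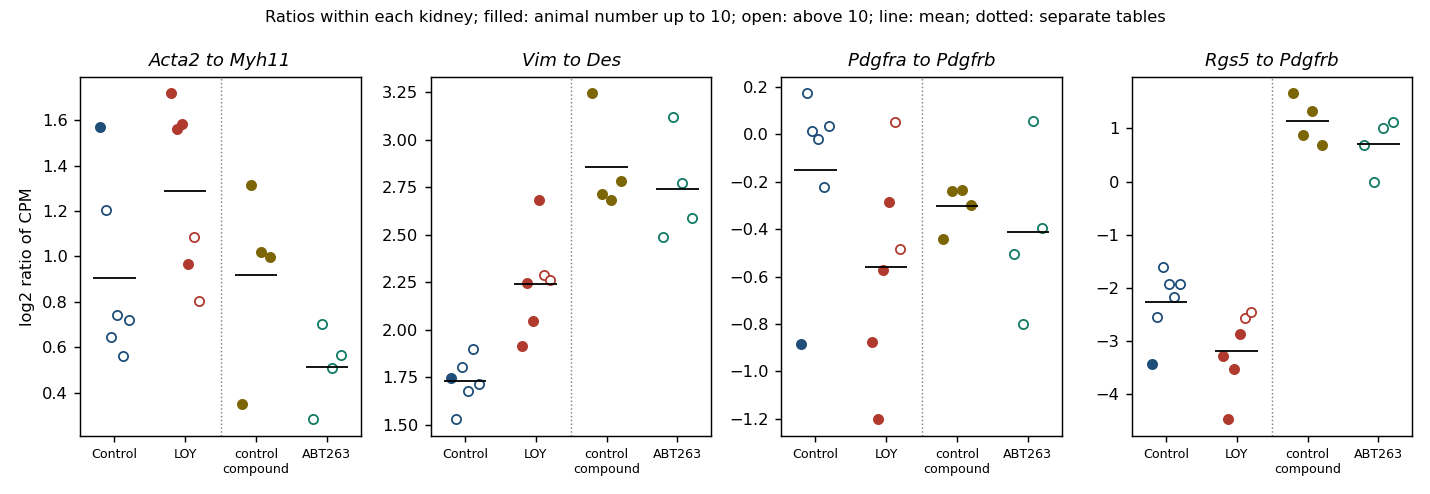
Log2 ratios of CPM within each kidney (vertical axes) for 4 pairs of members in all 4 groups, the tables separated by a dotted line, with the mean as a bar. For Vim to Des the 6 LOY kidneys of the first table lie above the 6 Control kidneys; filled points are animal numbers up to 10.

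The members differed among themselves in how alike they were over the 12 kidneys, measured as the mean absolute difference of their log2 deviations. Acta2 and Tagln were the closest pair (0.123), followed by Acta2 and Des (0.162) and by Des and Pdgfrb (0.175). Tagln and Rgs5 were the farthest (0.893). LOY animal 8 had the highest value for 5 members and the lowest for 2, while Control animal 13 had the lowest for 5. In LOY animal 8 the TMM factor was the lowest of the 12, at 0.884. Its summed CPM was the highest of the 12 for proximal tubule (64388), urothelium (259) and skeletal muscle (8.95) markers. The part of this in its member values was not tested.

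Among 14396 other genes, Tmem98 (0.0730) and the basement membrane collagen genes Col4a2 (0.0929) and Col4a1 (0.104), with Cxcl14 (0.0979) and Cygb (0.113), were most like Pdgfrb, where the median gene stood at 0.381. Cygb encodes cytoglobin, a globin of stromal cells. Vim was most like Ywhah (0.121), Rgs10 (0.139), the S100 genes S100a10 (0.143) and S100a11 (0.145) and the annexin Anxa3 (0.145), against a median of 0.562. Myh11 was most like Nbeal2 (0.0855), Cmtm8 (0.112), Dap (0.116), Prr14 (0.118) and Uimc1 (0.119), against 0.330, and none of these 5 is a contractile gene.

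The wider contractile apparatus did not pass. Of 25 tested genes besides the members, edgeR called 0 with LOY (4 at an unadjusted p under 0.05, and 4 each by DESeq2 and voom), 17 were positive and the median was 0.14. The smallest p belonged to Pdlim7, an actin-associated adaptor, at 0.76 ± 0.18 (18.4 ± 4.85 to 31.2 ± 6.82 CPM, adjusted p = 0.0528). The tropomyosin gene Tpm1 had 0.59 ± 0.14 (adjusted p = 0.0607) and the actinin gene Actn1 0.55 ± 0.14 (adjusted p = 0.0688). With animal number, 3 of the 25 were called lower above 10 and the median was -0.26.

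Of 25 other pericyte, mural and juxtaglomerular genes, edgeR called 0 (6 at an unadjusted p under 0.05, DESeq2 0, voom 2), with 14 positive and a median of 0.14. Kcnj8 and Abcc9, the channel and its regulatory subunit that mark pericytes, had -0.56 ± 0.21 (adjusted p = 0.163) and -0.48 ± 0.18 (adjusted p = 0.168), the same sign as Rgs5. Gucy1a3, a subunit of the nitric oxide receptor, had 0.34 ± 0.13 (adjusted p = 0.174).

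Fibroblast and stromal matrix genes were positive in 24 of 25 cases with a median of 0.41, and 0 were called (13 at an unadjusted p under 0.05, DESeq2 5, voom 7). The fibrillar collagen gene Col1a1 had 1.05 ± 0.25 (adjusted p = 0.0508), the surface marker gene Thy1, also a gene of T cells, 0.97 ± 0.23 (4.60 ± 1.37 to 9.01 ± 2.45 CPM, adjusted p = 0.0566) and the decorin gene Dcn 0.47 ± 0.12 (48.9 ± 6.88 to 67.7 ± 9.37 CPM, adjusted p = 0.0634). With number as a term their median LOY effect was 0.27.

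Genes of PDGF ligands and of the pathway below the receptors were mixed, 6 positive of 13 with a median of -0.06 and 0 called (4 at an unadjusted p under 0.05, DESeq2 0, voom 1). The adaptor gene Gab1 had -0.28 ± 0.10 (adjusted p = 0.164). The ligand gene Pdgfb, whose product binds the receptor of pericytes, had 0.33 ± 0.14 (40.4 ± 8.59 to 50.8 ± 6.90 CPM, adjusted p = 0.183), and the ligand gene Pdgfc -0.42 ± 0.18 (adjusted p = 0.197).

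Relatives of the members held 2 genes that rose. Among 14 other intermediate filament genes, all positive with a median of 0.52, the keratin gene Krt20 rose by 2.49 ± 0.56 (3.20 ± 2.21 to 17.9 ± 16.0 CPM, adjusted p = 0.0457), while Krt18 (1.37 ± 0.42) and Krt8 (0.57 ± 0.18), both also in the injured tubule list, did not pass. Among 12 other genes of the RGS family, Rgs10 rose by 1.01 ± 0.23 (4.82 ± 1.03 to 9.71 ± 3.52 CPM, adjusted p = 0.0462), opposite in sign to the value of Rgs5. Rgs16 (0.94 ± 0.24) and Rgs19 (0.88 ± 0.22) each had an adjusted p of 0.0634. All 9 other tested S100 genes were positive with a median of 0.63 and 0 called (7 at an unadjusted p under 0.05, 3 each by DESeq2 and voom). They were led by S100a10 (0.98 ± 0.26), S100a11 (1.06 ± 0.29) and S100a14 (1.41 ± 0.44). The S100 list also followed animal number, with a median of -0.86 and summed CPM of 1506 to 3106 up to 10 and 997 to 1159 above 10.

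With ABT263 no member passed the test in LOY kidneys. The edgeR test called 0 of 16956 genes higher (0%) and 0 lower (0%), with 1002 (5.91%) at an unadjusted p under 0.05, among them 1 of the 9 tested members. DESeq2 called 44 genes (0.260%) and voom 7 (0.0413%), and by all 3 tools 0 of the 9 members were called. The members had a median log2 fold change of -0.08, 3 positive and 6 negative, beside a median of -0.00278 over all genes. For Acta2 and Tagln the ABT263 values lay wholly below the control compound, 2 members beside 2.25% of all genes. For 0 members they lay wholly above, beside 2.04%.

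The animals given ABT263 were numbered 15 to 18 and those given the control compound 6 to 10, so animal number and treatment cannot be told apart in this table. Acta2 and Tagln are also the members with the smallest adjusted p for animal number in the larger table. The labels do not say what the numbers stand for in either table, and the part of animal number here was not tested.

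Acta2 was 55.3, 57.8, 69.1 and 49.4 CPM with the control compound (animals 6, 8, 9 and 10) and 37.7, 45.9, 44.4 and 41.9 CPM with ABT263 (animals 15, 16, 17 and 18). The groups did not overlap. The log2 fold change was -0.45 ± 0.11, with an unadjusted p of 0.00192 in edgeR and an adjusted p of 0.657. The adjusted p lay between 0.118 and 0.999 over the other settings, and the sign was negative in all 15.

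Tagln was 1.82, 1.61, 1.56 and 1.45 CPM with the control compound and 1.12, 1.44, 1.29 and 0.897 CPM with ABT263. The nearest values of the groups, 1.45 and 1.44 CPM, almost met. These rest on 13 to 34 counts per kidney. Its log2 fold change was -0.43 ± 0.26 (adjusted p = 0.847).

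Myh11 was 43.4, 23.2, 34.1 and 24.7 CPM with the control compound and 31.0, 28.2, 31.2 and 28.3 CPM with ABT263. Cnn1 was 2.82, 1.09, 1.38 and 1.496 CPM against 1.85, 1.44, 1.92 and 1.73 CPM. In both genes animal 6 was the highest kidney and the ABT263 values fell inside the range of the control compound. Des was 8.86, 16.1, 15.5 and 16.1 CPM against 15.0, 14.2, 11.9 and 13.5 CPM, with animal 6 the lowest. The log2 fold changes were -0.08 ± 0.18 for Myh11, 0.04 ± 0.32 for Cnn1 and -0.06 ± 0.19 for Des.

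Pdgfrb was 38.2, 61.3, 48.9 and 56.9 CPM against 61.8, 65.6, 48.7 and 52.1 CPM, and Rgs5 was 121, 113, 123 and 91.4 CPM against 99.6, 65.6, 97.8 and 113 CPM. The 2 mural genes thus overlapped between the groups, with log2 fold changes of 0.15 ± 0.15 and -0.25 ± 0.16 (adjusted p = 0.895 and 0.847).

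Vim was 84.9, 106, 100.4 and 111 CPM against 84.5, 124, 81.5 and 81.3 CPM. Of the ABT263 kidneys 3 lay just below every kidney with the control compound and 1, animal 16, above them all. The log2 fold change was -0.11 ± 0.15 (adjusted p = 0.925). Injured tubule markers summed to 19101 CPM in animal 16, against 1678 to 3655 CPM in the other 7 kidneys, and its proximal tubule markers had the lowest sum of the 8, at 13802 CPM. Without animal 16 the log2 fold change of Vim was -0.28 (adjusted p = 0.465), and the part of these cells in it was not tested.

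Pdgfra was 28.1, 51.97, 41.6 and 46.3 CPM against 43.5, 37.6, 50.6 and 39.6 CPM (0.03 ± 0.17, adjusted p = 0.990). S100a4 had 5, 9, 5 and 4 counts against 2, 3, 2 and 12 counts and was too low for the test.

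**Figure D4:**
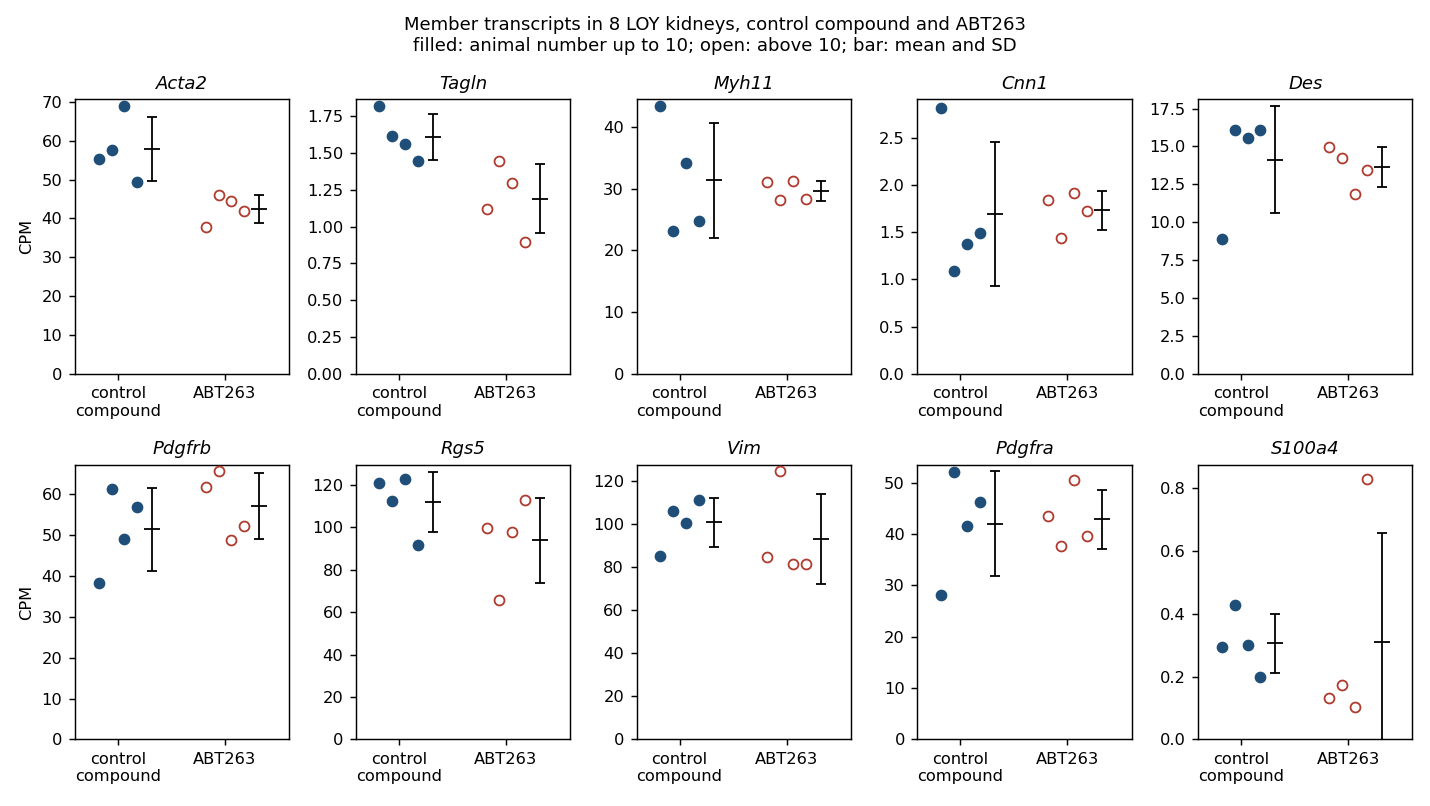
CPM of each member (vertical axes, from 0) in the 4 kidneys with the control compound and the 4 with ABT263, 1 point per kidney, with mean and SD. Acta2 and Tagln do not overlap between the groups. Every animal with ABT263 has a number above 10 and every animal with the control compound a number up to 10.

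Over 70 splits, which allow an exact permutation p of no less than 0.0286, none of the 5 ratios passed in this table. Acta2 to Myh11 differed by -0.41 (exact permutation p = 0.114), Rgs5 to Pdgfrb by -0.43 (exact permutation p = 0.286) and Vim to Des by -0.11 (exact permutation p = 0.514). Pdgfra to Pdgfrb differed by -0.11 (exact permutation p = 0.600) and S100a4 to Ptprc by 0.01 (exact permutation p = 0.971). The adjusted p of the 5 lay between 0.571 and 0.971.

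Over the 8 kidneys Des and Pdgfrb were the closest pair of members (0.128), then Des and Pdgfra (0.152) and Acta2 and Tagln (0.161). The genes most like Vim were Sparc (0.0459), a matrix protein gene, Slc38a2 (0.0473), Tnfsf12 (0.0529), Ywhah (0.0550) and the tubulin gene Tubb5 (0.0551), so that Ywhah was listed in both tables. Pdgfrb was most like Tubb6 (0.0586), Itsn1 (0.0616), Tmem231 (0.0617), Csf2ra (0.0636) and Sgsm3 (0.0646). Myh11 was most like Gm12319 (0.0679), Ppil6 (0.0701), Uaca (0.0793), Hspb7 (0.0802), a small heat shock protein gene of muscle, and Mrps28 (0.0817). The medians over 15513 genes were 0.250 for Vim, 0.247 for Pdgfrb and 0.263 for Myh11.

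In the 7 lists around the members edgeR called 0 genes with ABT263 (8 list entries at an unadjusted p under 0.05, and 0 by DESeq2 and by voom). Medians were 0.01 for the other contractile genes, 0.14 for pericyte and mural genes (20 of 25 positive) and 0.04 for fibroblast genes. They were -0.01 for the PDGF pathway, -0.13 for intermediate filaments, -0.19 for the S100 family (8 of 9 negative) and -0.18 for the RGS family. The smallest p per list belonged to Tpm1 (-0.18 ± 0.08), the angiotensin receptor gene Agtr1a (0.30 ± 0.10), the microfibril gene Mfap5 (-0.99 ± 0.44), Pdgfa (-0.32 ± 0.15), the nestin gene Nes (-0.25 ± 0.11), S100a10 (-0.29 ± 0.16) and Rgs10 (-0.72 ± 0.22). Their adjusted p lay between 0.662 and 0.846. Macrophage markers had a median of -0.42, with 11 of 12 negative, and 0 were called (6 at an unadjusted p under 0.05, DESeq2 1, voom 0). Their summed CPM was 449 to 743 with the control compound and 411 to 456 with ABT263.

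The level of 3 members depended on the table. The folds below were taken after adding 0.1 CPM to each mean, so they are smaller than the ratios of the printed means. In LOY kidneys of the larger table and in LOY kidneys with the control compound, Tagln averaged 81.5 and 1.61 CPM, a 47.7-fold difference. S100a4 averaged 7.99 and 0.305 CPM, 19.98-fold, and Rgs5 7.25 and 112 CPM, 15.2-fold the other way. Of 13084 genes compared, 2.29% differed by more than 8-fold, and these 3 of 10 members did. The others were closer, at 2.02-fold for Des, 2.01-fold for Cnn1 and at most 1.37-fold for Acta2, Myh11, Pdgfrb, Vim and Pdgfra. The tables were normalised apart and the groups differ by the compound, so these folds are descriptions with no test.

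In GENCODE M21 (GRCm38), 67.9% of the exon bases of Tagln, 1349 of 1988, are shared with exons of other genes, 1241 of them with the antisense gene Gm48529 and 108 with Pcsk7 on the opposite strand. For S100a4 (51.7%, 302 of 584 bases) the other gene is Gm42674, annotated as coding on the same strand, and no row of that name was used here from either table. Rgs5 (chromosome 1, 169655501 to 169695813) shares 0 bases, as do Acta2, Myh11, Cnn1 (chromosome 9, 22099216 to 22109630), Pdgfrb (chromosome 18, 61045150 to 61085061) and Vim, while Des shares 5.86% and Pdgfra 6.50%. Gm48529 had 11 to 34 counts per kidney in the smaller table, while no row of that name was used here from the larger one, so a separate count of the antisense gene stands beside Tagln in 1 table only. Whether the counting followed strand is not given in the sources used here, so reads of Tagln and of its antisense partner cannot be told apart by these tables. The levels of Tagln and S100a4 are therefore uncertain. So is that of Rgs5, which differed 15.2-fold between the tables with 0 shared bases. The part of the overlap in the difference between the tables was not tested.

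**Figure D5:**
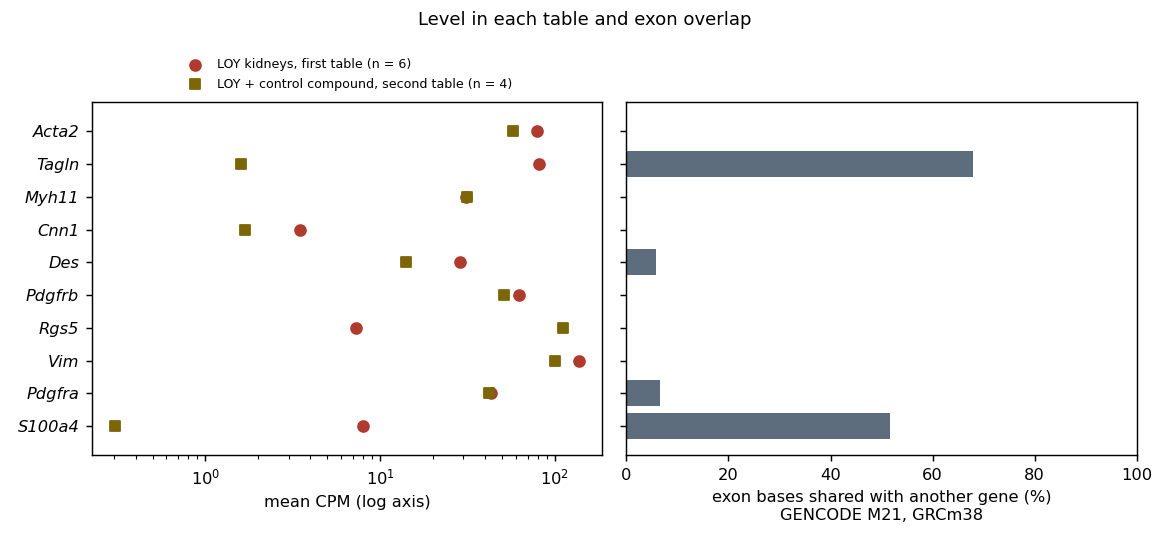
Left, mean CPM on a log axis of each member in the 6 LOY kidneys of the first table (circles) and the 4 LOY kidneys with control compound of the second (squares). Right, percent of exon bases shared with another gene in GENCODE M21: 67.9% for Tagln and 51.7% for S100a4, the members whose squares lie far to the left, and 0 for Rgs5, whose square lies to the right.

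Per kilobase of exon the order of the members could be compared. In Control kidneys Tagln led with 28.1 ± 12.9 CPM per kb, then Acta2 with 23.8 ± 9.17, Vim with 14.2 ± 3.92, Pdgfrb with 9.01 ± 2.89 and S100a4 with 7.49 ± 2.92 CPM per kb (SD, n = 6). Below them stood Des (5.38 ± 1.40), Pdgfra (4.32 ± 0.656), Myh11 (3.53 ± 0.613), Rgs5 (2.20 ± 0.495) and Cnn1 (0.862 ± 0.117). From Tagln down to Myh11 each neighbour differed from the next by less than their summed SD, and only Rgs5 and Cnn1 were lower than the gene before them by more than that. With the control compound the order was led by Acta2 (26.4 ± 3.76 CPM per kb), Rgs5 (24.6 ± 3.15) and Vim (21.2 ± 2.38). Tagln (0.810 ± 0.0787), Cnn1 (0.620 ± 0.280) and S100a4 (0.522 ± 0.160) were the lowest.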

How the data were processed

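RNA of 20 mouse kidneys was measured by RNA sequencing in 2 tables. The authors deposited gene counts, on mm10 per the submitters' processing notes. How reads were aligned and counted, with which gene models and with or without strand, is not given in the sources used here. Reads that the larger table assigned to no gene, 0.223% to 0.401% of its counts, were left out. Symbols used by more than 1 gene of the smaller table (24 symbols, 190 genes) were kept as separate genes. Groups followed the labels. Pairs of kidneys within a group were checked for repeated libraries: the squared difference of their counts over its Poisson expectation had a median over genes of at least 1.90 in 30 pairs and of at least 1.64 in 12 pairs, where 0.455 would mark sampling noise alone.

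Each table was fitted over all its genes by the quasi-likelihood F test of edgeR 4.0.16 (R 4.3.3, TMM scaling, robust fit, Benjamini-Hochberg threshold 0.05). The filter was filterByExpr at a count of 10 and a total of 15. The SE of a log2 fold change was taken as its absolute value divided by the root of F. Alternatives were DESeq2 1.42.0, voom with quality weights in limma 3.58.1, other scalings and filters, leaving out each kidney, animal number as a term and the animals numbered above 10 alone; the last of these was chosen after seeing the data for the ratios. Scripts were tested on simulated data with known answers. For the larger table edgeR recovered 26.7% of 1.5-fold and 71.9% of 2-fold changes, and for the smaller 44.1% and 72.9%. Of its calls, 4.65% and 10.1% fell on unchanged genes, so a change near 1.5-fold could often be missed. The simulated counts were drawn gene by gene, with planted changes and no difference by animal number or cell make-up. The share recovered in the real kidneys may therefore be lower and is not known.

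The members and lists were chosen with earlier results of these data known. All members are named; of each list without cell type markers, the 3 genes of smallest p with LOY and the 1 of smallest p with ABT263; and for Myh11, Pdgfrb and Vim the 5 genes with the smallest mean absolute difference of log2 CPM deviations (prior count 2, mean of at least 1 CPM). Ratios used the same log2 CPM. Annotation came from GENCODE M21 and start windows from RefSeq.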

Additional observations from a re-analysis of the deposited data

Results flagged for a closer look

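In groups of 4 or 6 kidneys, the highest or lowest kidney of a member stood far from the rest in 8 of 40 groups by Dixon's test. Chance alone would mark about 1 in 20 independent groups. These groups are not independent, since all members were measured in the same kidneys, so the rates are set side by side without a test. Control animal 3 was the highest of its group, and far from the next, for Acta2 (92.8 CPM), Tagln (107 CPM) and Pdgfrb (79.9 CPM). These genes, with Des, also separated by animal number. Since animal 3 was the only Control kidney numbered up to 10, both descriptions rest largely on the same values. LOY animal 8 stood apart for Cnn1 (8.80 CPM) and S100a4 (15.8 CPM). With the control compound, animal 6 was the lowest for Des (8.86 CPM). With ABT263, animal 16 was the highest for Vim (124 CPM) and animal 18 for S100a4 (0.828 CPM, 12 counts).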

How the results depend on the processing

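The members kept their sign and side of the threshold in 184 of 220 refits for LOY and in 123 of 135 for ABT263. No paired analysis was possible because the groups compared share no animal number. The 176 genes called with LOY became 105 with totals alone, 866 with DESeq2, 1077 with voom, 549 at an adjusted p of 0.1, 0 with animal number as a term (1194 at an unadjusted p under 0.05), 451 in animals above 10 alone and 29 without LOY animals 8 and 10. Leaving out single kidneys gave 0 to 607: 607 without Control animal 3, 3 without 11, 2 without 12, 9 without 13, and 0 in edgeR without 16 or without 17 (2870 and 2611 at an unadjusted p under 0.05). Among LOY animals it was 96 without 9, 1 without 10, 116 without 14 and 296 without 18. The 1 member called became 0 with median-ratio factors, upper-quartile factors, totals alone, either other filter, the number term and without LOY animals 8 and 10 (0 to 4 when single kidneys were left out). With ABT263 the 0 genes called in edgeR (1002 at an unadjusted p under 0.05) became 44 with DESeq2, 7 with voom and 0 to 9 when single kidneys were left out.

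Signs turned for LOY in Pdgfra (0.0152 with upper-quartile factors, 0.0331 with totals alone, 0.00296 with voom, 0.0325 with the number term, 0.0701 above 10, -0.15 to 0.10 without single kidneys), in Cnn1 (-0.0231 with voom, -0.14 with the number term, -0.72 above 10, -0.0246 without LOY animals 8 and 10) and in Myh11 (-0.00186, -0.0858 and -0.0202 in the last 3 of these). Vim was weaker at 0.66 with the number term and 0.62 without LOY animals 8 and 10. With ABT263 signs turned in Myh11 (0.16 with voom, -0.20 to 0.12 without single kidneys), Pdgfra (-0.0503 with voom, -0.12 to 0.15), Cnn1 (-0.13 to 0.39) and Des (-0.22 to 0.0122).

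Of the ratios, Vim to Des with LOY was 0.55 above 10, with an adjusted p of 0.238 by exact permutation. That is the smallest that 21 splits could give it, so that setting says nothing of the call. Rgs5 to Pdgfrb passed without Control animal 3, the only Control kidney numbered up to 10 (-1.16, and -1.16 to -0.67 without single kidneys). S100a4 to Ptprc turned at -0.54 above 10 and -0.24 to 0.20 without single kidneys. With ABT263 it turned at -0.14 with a prior count of 0.5 and -0.47 to 0.29 without single kidneys, Vim to Des ran from -0.24 to 0.0155 and Pdgfra to Pdgfrb from -0.26 to 0.0217. The cause of these shifts was not tested. Low counts limit S100a4 (2 to 12) and Tagln (13 to 34) in the smaller table.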
